A study of Mus musculus with 12 samples.

Results

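The genes described here are 10 transcripts of the intercalated cell, the acid-base cell of the kidney collecting duct: Slc4a1, Slc4a9, Slc26a4, Foxi1, Atp6v1b1, Atp6v1c2, Atp6v1g3, Atp6v0d2, Rhcg and Rhbg. They were chosen by symbol, by a rule that uses no measured value but was set with earlier results of these data known, and all 10 were found among the 23420 genes of the count table. RNA sequencing was done on 12 kidneys of C57BL/6J male mice, from the tissue left after the middle of each kidney had been taken for histology. There were 4 control kidneys, taken at nephrectomy, and 8 kidneys removed 24 h after ischemia of the renal pedicle with a clamp that is tightened from outside the body by a thread. In the paper, this clamp is placed in an operation under anaesthesia, with buprenorphine given after it, and mice are bled before tissue is collected. The ischemic kidneys may thus differ from the controls by more than the ischemia, and these parts cannot be told apart here. The sample labels give 20 min of ischemia for every kidney, the controls included. For the ischemic kidneys the labels contradict each other. The 4 kidneys of ischemia set A are titled as anaesthetised but have conscious in the group field, and the 4 kidneys of ischemia set B are titled as conscious but have anaesthesia in the group field. The sets are therefore named A and B, and no direction is given to anaesthesia. No allele or transgene is given for any group. Nothing in the labels says from which animal, cage or operating day a kidney came, or whether a control and an ischemic kidney came from the same mouse, so the p-values measure the spread between these kidneys.

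Intercalated cells come in type A, which secretes acid, and type B, which secretes bicarbonate. Both carry a vacuolar proton pump (V-ATPase), placed in the apical membrane in type A and mostly in the basolateral membrane in type B. Type A cells return bicarbonate to the blood through the kidney form of the anion exchanger AE1, encoded by Slc4a1. Type B cells carry the chloride-bicarbonate exchanger pendrin (Slc26a4) in the apical membrane and AE4 (Slc4a9) in the basolateral membrane. Foxi1 is a forkhead transcription factor that intercalated cells need to form, and Rhcg and Rhbg are ammonia transporters of the distal nephron. In bulk kidney tissue, fewer cells of a type and less RNA per cell cannot be told apart.

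Because Foxi1 binds forkhead motifs, the promoters of members that did and did not change are shown, each as the bases from 250 to 31 before the start of transcription, from RefSeq on build GRCm38.p6. The RefSeq promoter set held Slc26a4, Foxi1, Atp6v1b1, Atp6v1g3, Atp6v1c2 and Rhcg, which are 6 of the 10 genes. Capitals mark matches to the forkhead motif TGTTTAC or to the shorter core AAACA, searched on both strands. The longer motif contains the reverse complement of the core, so each longer match is also a match to the core.
Atp6v1b1, chr6:83742767-83742986, plus strand: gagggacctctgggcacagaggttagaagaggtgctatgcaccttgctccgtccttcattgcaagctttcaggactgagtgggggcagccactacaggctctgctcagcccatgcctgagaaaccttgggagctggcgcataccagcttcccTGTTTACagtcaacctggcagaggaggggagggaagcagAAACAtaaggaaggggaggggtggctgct
Atp6v1g3, chr1:138273488-138273707, plus strand: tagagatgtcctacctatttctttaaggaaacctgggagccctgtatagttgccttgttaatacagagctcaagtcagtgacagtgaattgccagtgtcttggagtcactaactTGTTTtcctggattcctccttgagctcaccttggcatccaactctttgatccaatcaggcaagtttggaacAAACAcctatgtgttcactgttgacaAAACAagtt
Foxi1, chr11:34208120-34208339, minus strand: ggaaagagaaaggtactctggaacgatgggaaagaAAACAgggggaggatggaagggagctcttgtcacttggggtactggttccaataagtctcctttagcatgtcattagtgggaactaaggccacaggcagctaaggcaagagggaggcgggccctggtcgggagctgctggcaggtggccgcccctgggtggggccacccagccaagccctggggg
Rhcg, chr7:79617688-79617907, minus strand: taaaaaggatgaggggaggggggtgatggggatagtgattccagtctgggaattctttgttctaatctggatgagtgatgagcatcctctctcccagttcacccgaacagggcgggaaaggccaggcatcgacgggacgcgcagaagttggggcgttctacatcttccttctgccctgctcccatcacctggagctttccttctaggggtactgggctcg
The longer motif was found in the Atp6v1b1 window, beginning 98 bases before the start, and in 2.81% of the 32851 promoter windows of the same length. The core was found in 43.4% of those windows. Atp6v1g3 held 3 core matches, Atp6v1b1 held 2, Foxi1 and Slc26a4 held 1 each, and these letters were not found in the Rhcg and Atp6v1c2 windows. The Atp6v1c2 window (chr12:17324761-17324980, minus strand) lies inside the gene span given below, so it belongs to another start than that span. These matches describe letters only. Atp6v1b1 and Rhcg fell after ischemia, as described further on, and Foxi1 and Atp6v1g3 did not pass the test.

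On mm10 the genes lie on 8 chromosomes. Slc4a1 (102348824 to 102366203, minus strand) and Foxi1 (34204338 to 34208089, minus strand) are on chromosome 11. Slc26a4 (31519827 to 31559969, minus strand) and Atp6v1c2 (17284721 to 17329359, minus strand) are on chromosome 12. Atp6v1g3 is on chromosome 1 (138273738 to 138289462, plus strand), Rhbg on chromosome 3 (88242874 to 88254709, minus strand), Atp6v0d2 on chromosome 4 (19876841 to 19922605, minus strand) and Atp6v1b1 on chromosome 6 (83742990 to 83758855, plus strand). Rhcg is on chromosome 7 (79593363 to 79617657, minus strand) and Slc4a9 on chromosome 18 (36528147 to 36556273, plus strand). All 10 are protein-coding, and the counts are of reads in exons, so the kidney and red cell forms of Slc4a1 are counted together. In the annotation used here (GENCODE M21), 61.4% of the exon bases of Rhbg are shared with Gm38392, a gene on the same strand that is not in the count table. The table also lists genes without reads, so Gm38392 may not have been in the annotation used for counting. Whether the overlap lowered the Rhbg counts is therefore not known. Atp6v1c2 shares 50 exon bases, 3.02% of its length, with Pdia6 on the opposite strand. The strand setting of the counting is not given in the sources used here.

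Sequencing depth, as counts in genes, ranged from 15367342 to 44793350 reads. The values below are counts scaled to library size (CPM, with TMM factors), and all 10 genes passed the low-count filter, which left 11664 genes to test. Ischemia set B replicate 4 stood apart from all other kidneys on the second principal component (149.45, against -41.36 to 25.61 elsewhere). It also had the smallest total count and the highest CPM among the 8 ischemic kidneys for 7 of the 10 genes, so results that rest on it are given with and without it. Kidney markers were present, with Slc34a1 of the proximal tubule between 4557 and 5183 CPM in the controls, Umod of the thick ascending limb between 110.7 and 118.5 CPM, Aqp2 of the principal cell between 8.47 and 17.3 CPM and Nphs1 of the podocyte at most 1.71 CPM. Umod and Aqp2 are abundant in kidney, and their levels here were low for such transcripts. How the counting treated reads that fit more than one gene or place is not given in the sources used here, so levels compared between genes are uncertain. Markers of fat (Adipoq, Plin1) had no counts in any kidney.

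In the normal kidney, Foxi1 was the most abundant of the 10 transcripts when CPM was divided by exon length. Its level was 58.6 ± 20.8 CPM per kb (SD, n = 4), and its lowest control kidney, at 44.0 CPM per kb, lay above the highest value of any other member. Rhcg followed with 24.3 ± 3.01 CPM per kb, then Atp6v1b1 with 16.4 ± 5.67 and Atp6v1c2 with 12.1 ± 2.22 CPM per kb, and each of these overlapped its neighbour in the order. Slc4a1 came next, at 7.60 ± 1.58 CPM per kb, with no control kidney in the range of Atp6v1c2. Atp6v0d2 (6.19 ± 1.71), Slc26a4 (6.07 ± 2.05), Atp6v1g3 (4.56 ± 1.04) and Slc4a9 (3.99 ± 0.686 CPM per kb) overlapped with their neighbours, and Rhbg was lowest at 1.70 ± 0.869 CPM per kb, below every other member. After ischemia Foxi1 kept the first place and Rhbg the last in both sets. Slc4a1 moved from place 5 to place 9 in both, at 1.73 ± 0.631 CPM per kb in set A and 0.967 ± 0.373 CPM per kb in set B.

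When all 8 ischemic kidneys were compared with the 4 controls, 3 of the 10 genes fell and none rose. The genes that fell were Slc4a1, the basolateral exchanger of type A cells, Rhcg, an ammonia transporter, and Atp6v1b1, the B subunit of the pump that is enriched in the intercalated cell. Calls were made with the quasi-likelihood test of edgeR, at a threshold of 0.05 for p adjusted by the Benjamini-Hochberg method across the whole table. By that rule 26.4% of all genes tested were called, 12.2% higher and 14.2% lower. The share of members called, 3 of 10, is near that background. The median log2 fold change of the members was -0.76, and that of all genes tested was -0.03. Over all ischemic kidneys the count of 0 genes called higher held in DESeq2 too, and no member that was higher had an unadjusted p below 0.05. Foxi1 did in set B, and it was called higher under some alternatives, which stand with its values. Set A alone gave the same 3 genes, against a background of 22.3% called (10.5% higher, 11.7% lower). In set B alone Slc4a1 and Rhcg were called, against 22.8% (10.9% higher, 11.9% lower). These comparisons share their control kidneys, so the sets are not separate evidence on the controls.

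**Figure D1:**
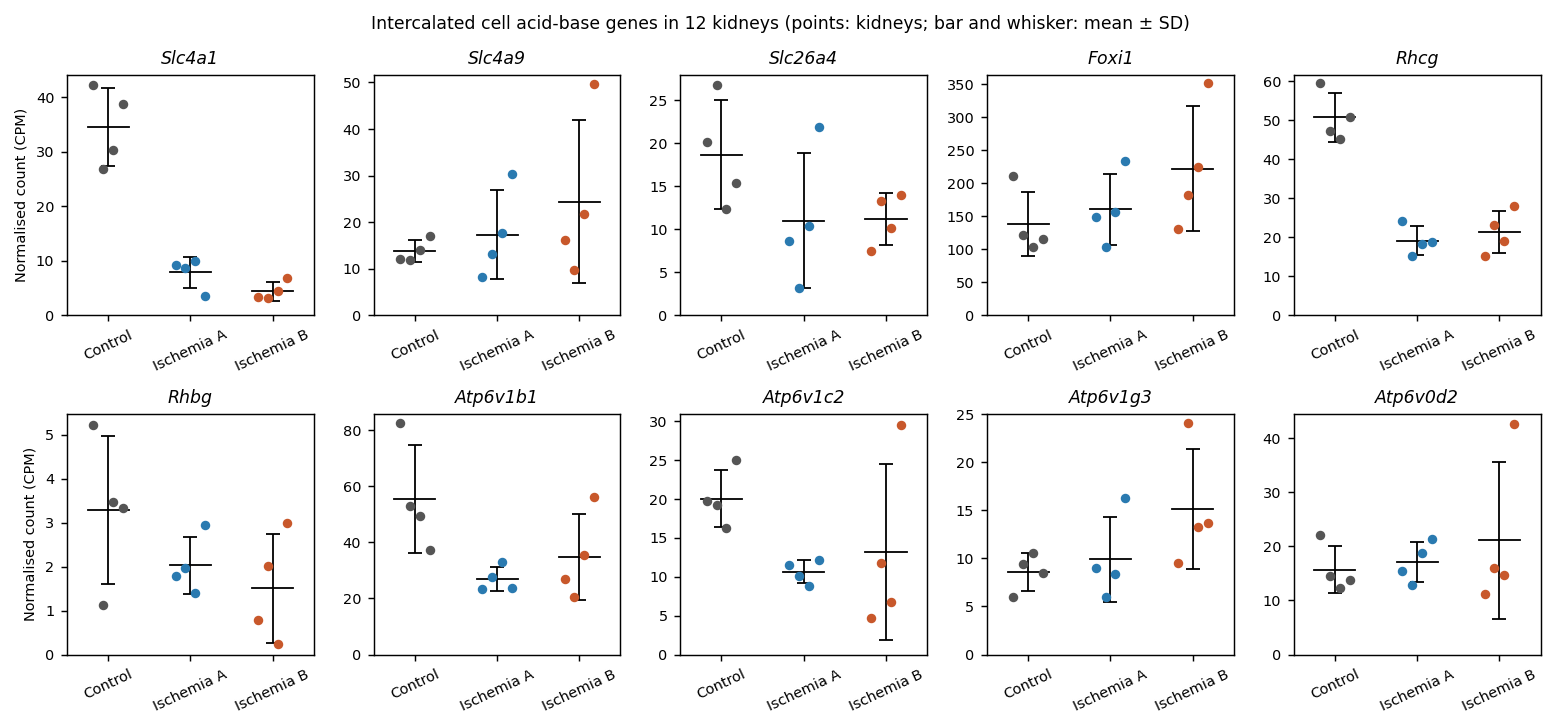
Normalised counts (CPM, linear axes from 0) of the 10 genes in each kidney, with 4 control kidneys, 4 of ischemia set A and 4 of ischemia set B, replicates 1 to 4 from left to right; points are kidneys, the bar is the mean and the whisker the SD. Slc4a1 and Rhcg show no overlap between ischemic and control kidneys, while set B replicate 4 is the highest ischemic kidney for 7 of the genes.

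Of the 3 anion exchangers, Slc4a1 fell and Slc4a9 and Slc26a4 did not pass the test. In the controls, Slc4a1 had 42.2, 26.9, 30.3 and 38.8 CPM (replicates 1 to 4). In set A it had 9.20, 8.73, 9.89 and 3.61 CPM, and in set B 3.30, 3.10, 4.40 and 6.79 CPM. Every ischemic kidney was below every control kidney. Slc4a1 was 5.87-fold lower in the 8 ischemic kidneys (log2 fold change -2.55, 95% interval -3.19 to -1.92, edgeR adjusted p = 1.99e-06). The change was -2.13 in set A (edgeR adjusted p = 2.75e-04) and -2.98 in set B (edgeR adjusted p = 1.08e-05). An exact two-sided permutation test of CPM gave p = 0.0040 for 8 kidneys against 4 and p = 0.0286 for each set, the smallest values that these numbers of kidneys allow. The change over all ischemic kidneys was -2.70 without set B replicate 4.

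Slc4a1 is also the band 3 protein of red cells, and red cell transcripts moved with it. Hbb-bs, a beta globin chain, had 55.3, 71.9, 117.2 and 90.7 CPM in the controls, 48.5, 30.9, 36.9 and 25.2 CPM in set A and 31.7, 14.7, 20.0 and 19.2 CPM in set B. No ischemic kidney reached the lowest control kidney. Hbb-bs fell by 1.60 on the log2 scale (edgeR adjusted p = 1.61e-05). The red cell list had 11 genes, of which 10 were in the table. The summed level of the list ranged from 58.3 to 123.8 CPM in control kidneys, from 25.5 to 48.8 CPM in set A kidneys and from 14.7 to 34.1 CPM in set B kidneys. Alas2, the red cell enzyme of heme synthesis, also fell, from 1.20 to 5.55 CPM in the controls to at most 0.573 CPM after ischemia (edgeR adjusted p = 0.0161), and Ank1 did not pass the test. The other globin genes of the list (Hba-a1, Hba-a2, Hbb-b1, Hbb-b2) and Rhag had no counts in any kidney. The globin genes have near-identical copies, and with the treatment of shared reads unknown a count of 0 does not show that the transcript was absent, so that the summed red cell level may be incomplete. Without control replicate 3, only 1 of the red cell genes passed. Within a library, the log2 ratio of Slc4a1 to Hbb-bs counts was -1.25 ± 0.649 (SD, n = 4) in the controls and -2.26 ± 0.562 (SD, n = 8) after ischemia. That ratio was lower by 1.01 on the log2 scale, with an exact permutation p of 0.0202 and an adjusted p of 0.0328 over 13 ratios chosen after the values were seen. It lay below every control in 5 of 8 ischemic kidneys. The part of red cells in the fall of Slc4a1 was not tested further.

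The exchangers of type B cells did not pass the test in either direction. Slc4a9 had 12.2, 11.8, 13.9 and 17.0 CPM in the controls, 8.15, 13.1, 17.7 and 30.3 CPM in set A and 16.2, 9.80, 21.8 and 49.6 CPM in set B. The groups overlapped, with 4 of 8 ischemic kidneys above every control and 2 below every control. The log2 fold change was 0.58 (95% interval -0.24 to 1.39, edgeR adjusted p = 0.328), and it was 0.27 without set B replicate 4. Slc26a4 had 20.1, 26.8, 12.3 and 15.4 CPM in the controls, 8.60, 3.12, 10.4 and 21.9 CPM in set A and 7.41, 13.2, 10.2 and 13.96 CPM in set B. Set A replicate 4 was the exception, since 7 of 8 ischemic kidneys lay below the control median. The log2 fold change of Slc26a4 was -0.75 (95% interval -1.57 to 0.06, edgeR adjusted p = 0.174). Without set A replicate 4 it was -1.06 and passed the test (edgeR adjusted p = 0.0370).

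Foxi1, the transcription factor, did not pass the test. It had 210.9, 122.1, 103.7 and 116.1 CPM in the controls, 149.0, 103.9, 156.8 and 233.2 CPM in set A and 129.9, 182.5, 224.0 and 351.5 CPM in set B. Control replicate 1 was well above the other controls, and set B replicate 4 was the highest of all kidneys. The log2 fold change was 0.45 over all ischemic kidneys (95% interval -0.06 to 0.96, edgeR adjusted p = 0.200), 0.22 in set A (edgeR adjusted p = 0.699) and 0.68 in set B (edgeR adjusted p = 0.0883). The call depended on single kidneys. Without control replicate 1 Foxi1 was higher in all ischemic kidneys (log2 fold change 0.73, edgeR adjusted p = 0.0399) and in set B (0.95, edgeR adjusted p = 0.0183). In set B it also passed without set B replicate 1 (0.85, edgeR adjusted p = 0.0285), while without set B replicate 4 the value there was 0.37 (edgeR adjusted p = 0.354). With no filter on low counts it was 0.66 in set B and passed (edgeR adjusted p = 0.0447).

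Of the ammonia transporters, Rhcg fell in every ischemic kidney. It had 59.5, 47.3, 45.2 and 50.9 CPM in the controls, 24.1, 15.3, 18.3 and 18.7 CPM in set A and 15.3, 23.0, 19.1 and 27.9 CPM in set B. The highest ischemic kidney was far below the lowest control. Rhcg was 2.51-fold lower in all ischemic kidneys (log2 fold change -1.33, 95% interval -1.75 to -0.91, edgeR adjusted p = 3.24e-05), with -1.41 in set A (edgeR adjusted p = 2.02e-04) and -1.25 in set B (edgeR adjusted p = 6.36e-04). The exact permutation p was 0.0040 for 8 kidneys against 4. Rhbg was near the limit of the counts, with 43 to 128 reads per control kidney and 5 to 64 per ischemic kidney. It had 5.23, 1.12, 3.47 and 3.34 CPM in the controls, 1.78, 1.97, 1.41 and 2.95 CPM in set A and 0.775, 2.02, 0.242 and 2.98 CPM in set B. The groups overlapped, although all 8 ischemic kidneys were below the control median. Its log2 fold change of -0.91 had a 95% interval from -2.77 to 0.94 (edgeR adjusted p = 0.536).

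**Figure D2:**
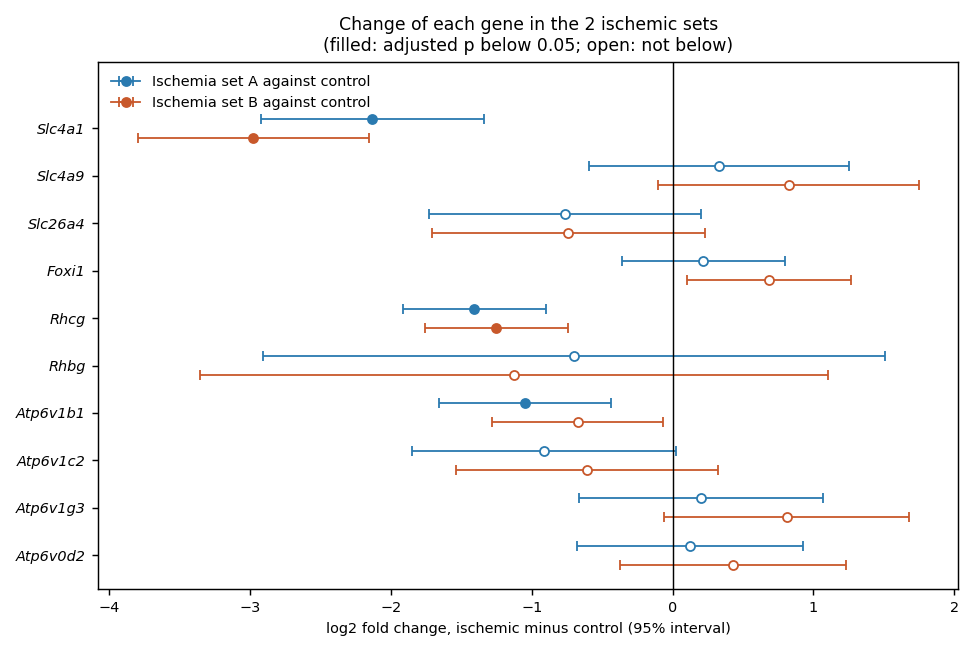
Log2 fold change of each gene against the control kidneys (horizontal axis, 95% interval as whisker) in ischemia set A (blue) and ischemia set B (orange), from edgeR; filled points have an adjusted p below 0.05. Slc4a1 lies furthest to the left, at -2.13 and -2.98, and the intervals of Slc4a9, Slc26a4, Rhbg, Atp6v1c2, Atp6v1g3 and Atp6v0d2 include 0 in both sets.

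Among the pump subunits, the catalytic-sector gene Atp6v1b1 fell. It had 82.6, 52.9, 49.3 and 37.2 CPM in the controls, 23.5, 27.5, 32.8 and 23.7 CPM in set A and 27.0, 20.6, 35.4 and 56.1 CPM in set B. Every ischemic kidney except set B replicate 4 was below every control. Atp6v1b1 was 1.82-fold lower over all ischemic kidneys (log2 fold change -0.86, 95% interval -1.37 to -0.35, edgeR adjusted p = 0.0115). It passed in set A (-1.05, edgeR adjusted p = 0.0126) and not in set B (-0.67, edgeR adjusted p = 0.109), and the difference between the sets did not pass either (0.37, 95% interval -0.24 to 0.98, edgeR adjusted p = 0.9997). Without set B replicate 4 the set B value was -1.004 and passed (edgeR adjusted p = 0.0103). Without control replicate 1, which was the highest control, the call was lost over all ischemic kidneys (-0.60, edgeR adjusted p = 0.102) and in set A (-0.78, edgeR adjusted p = 0.0734).

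Atp6v1c2, which encodes a C subunit of the pump's cytosolic sector, had 19.8, 19.2, 16.2 and 25.1 CPM in the controls, 11.6, 10.1, 8.83 and 12.2 CPM in set A and 4.71, 11.8, 6.77 and 29.6 CPM in set B. All ischemic kidneys except set B replicate 4 were below every control, and that kidney was above every control. In set A the value was -0.92 (edgeR adjusted p = 0.170), and a fit of set A and the controls alone gave -0.88 and a call (edgeR adjusted p = 0.0307). Over all ischemic kidneys the log2 fold change was -0.76 (95% interval -1.55 to 0.02, edgeR adjusted p = 0.152). Without set B replicate 4 it was -1.15 over the other 7 ischemic kidneys and passed the test (edgeR adjusted p = 0.00623). In set B without that kidney it was -1.38 (edgeR adjusted p = 0.0134).

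Atp6v1g3, the G subunit enriched in kidney, did not pass the test. It had 5.99, 9.38, 10.6 and 8.46 CPM in the controls, 9.04, 6.03, 8.32 and 16.3 CPM in set A and 9.53, 24.1, 13.2 and 13.6 CPM in set B. Among set B, 3 of 4 kidneys were above every control. Its log2 fold change was 0.51 (95% interval -0.26 to 1.27, edgeR adjusted p = 0.368). Atp6v0d2, a d subunit of the membrane sector, had 22.1, 14.6, 12.4 and 13.8 CPM in the controls, 15.5, 12.8, 18.8 and 21.3 CPM in set A and 11.2, 16.0, 14.6 and 42.7 CPM in set B. The groups overlapped throughout. The log2 fold change of 0.27 (95% interval -0.43 to 0.98, edgeR adjusted p = 0.643) became -0.0265 without set B replicate 4.

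The difference between the ischemic sets was then tested. Of the 10 genes, 0 were called in set B against set A by edgeR and 0 by DESeq2, and 1 of the 10, Slc4a1, had an unadjusted p below 0.05. Slc4a1 was lower in set B by 0.84 on the log2 scale (95% interval -1.62 to -0.07, edgeR adjusted p = 0.962), and the exact permutation p was 0.0857. The background was 0.00857%, a single gene of 11664, Slc5a12, which is no member and is named here because it is the only one (higher in set B by 1.85 on the log2 scale, edgeR adjusted p = 0.0328). The 95% intervals of the log2 difference were wide, for example -0.43 to 1.42 for Slc4a9, -0.26 to 1.48 for Atp6v1g3 and -2.64 to 1.78 for Rhbg, so the sets were not shown to be alike. The interval was narrowest for Rhcg (-0.34 to 0.66).

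The counts also allow the genes to be compared with each other inside a library, which removes the scaling between libraries. These ratios were chosen after the values were seen. Relative to Foxi1, Slc4a1 counts were lower by 3.05 on the log2 scale in the 8 ischemic kidneys, from -1.96 ± 0.345 (SD, n = 4) to -5.01 ± 0.985 (SD, n = 8). Every ischemic kidney was below every control, and the exact permutation p was 0.0040, the smallest it can be, with an adjusted p of 0.0105 over the 13 ratios. Rhcg was lower by 1.78 relative to Foxi1, Slc26a4 by 1.30 and Atp6v1b1 by 1.29 on the log2 scale, each in 8 of 8 kidneys and with the same exact permutation p. Slc4a1 and Rhcg did not overlap the controls on their own, so their ratios are not separate support. Slc26a4 and Foxi1 did not pass alone (log2 fold change -0.75 and 0.45), so their ratio holds the changes of both genes. Atp6v1c2 was lower by 1.36 in 7 of 8 kidneys (exact permutation adjusted p = 0.0150). Rhbg was lower by 1.42 relative to Foxi1, in 4 of 8 kidneys (exact permutation p = 0.0283, adjusted p = 0.0409). By contrast the ratios of Slc4a9 and Atp6v1g3 to Foxi1 differed by -0.05 and 0.02 on the log2 scale (exact permutation p = 0.869 and 0.949). That of Atp6v0d2 to Foxi1 differed by -0.24 and did not pass (exact permutation p = 0.210), with 5 kidneys below every control and 3 above. The ratio of Atp6v1b1 to Atp6v1g3 was lower by 1.30, in 7 of 8 kidneys (exact permutation adjusted p = 0.0150). The ratio of Slc4a1 to Slc4a9, an exchanger of type A cells over one of type B cells, was 1.32 ± 0.316 (SD, n = 4) in the controls and -1.68 ± 1.16 (SD, n = 8) after ischemia, 7.99-fold lower, in 8 of 8 kidneys. It was 7.10-fold lower without set B replicate 4. The ratio of Slc4a1 to Slc26a4, the other exchanger of type B cells, was lower by 1.75 on the log2 scale and did not pass (exact permutation p = 0.0485, adjusted p = 0.0630), with 6 of 8 ischemic kidneys below every control and 1 above every control. Hbb-bs fell in the same kidneys, as given above. In set A alone, Slc4a1, Rhcg, Slc26a4 and Atp6v1b1 over Foxi1, and Slc4a1 over Slc4a9, did not pass (exact permutation p = 0.0286, adjusted p = 0.0743). In set B alone these ratios passed with the same exact permutation p (adjusted p = 0.0464). The difference between the sets was not tested for them.

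**Figure D3:**
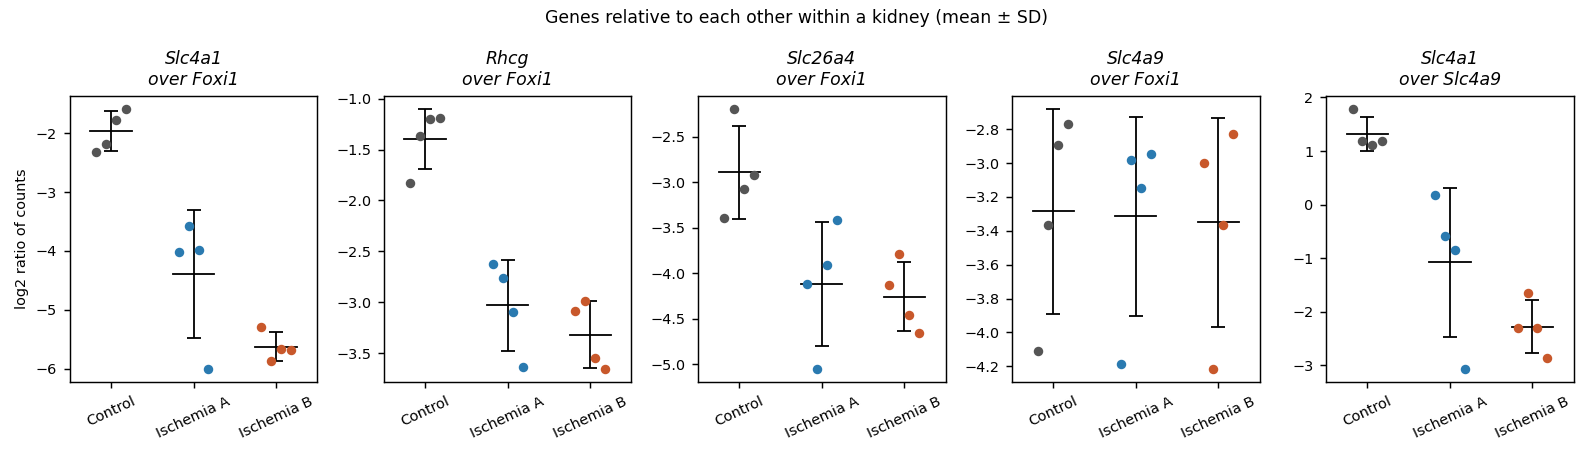
Log2 ratio of counts of a gene to another in the same kidney (vertical axis, a different range in each panel) for the control kidneys and the 2 ischemic sets; points are kidneys, the bar is the mean and the whisker the SD. The ratios of Slc4a1, Rhcg and Slc26a4 to Foxi1 are lower in all 8 ischemic kidneys than in any control, and that of Slc4a9 to Foxi1 overlaps between the 3 groups.

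Several pump subunits have a widely expressed paralog, so the kidney-enriched copy can be set against it in each kidney. Of 5 such pairs, 1 passed an exact permutation test after adjustment over the pairs. The ratio of Atp6v0a4, the kidney-enriched a subunit, to Atp6v0a1 was 0.81 ± 0.319 on the log2 scale (SD, n = 4) in the controls and -0.64 ± 0.304 (SD, n = 8) after ischemia. It was lower in 8 of 8 ischemic kidneys than in any control (exact permutation p = 0.0040, adjusted p = 0.0202). Each gene of the pair passed the test on its own, since Atp6v0a4 fell by 0.64 (edgeR adjusted p = 0.00368) and Atp6v0a1 rose by 0.81 on the log2 scale (edgeR adjusted p = 5.02e-04). In which cells of the kidney these genes moved was not tested. Over all ischemic kidneys the 4 pairs with a member of the group did not pass. The difference was -0.50 for Atp6v1b1 over Atp6v1b2 (exact permutation adjusted p = 0.210), -0.99 for Atp6v1c2 over Atp6v1c1 (0.0909), 0.73 for Atp6v1g3 over Atp6v1g1 (0.0909) and 1.03 for Atp6v0d2 over Atp6v0d1 (0.0808). In the last pair 6 of 8 ischemic kidneys were above every control, and Atp6v0d1 itself fell by 0.82 on the log2 scale (edgeR adjusted p = 0.00324). Without set B replicate 4 the difference for Atp6v1c2 over Atp6v1c1 was -1.24 and passed (exact permutation adjusted p = 0.0152). In set A alone Atp6v1c2 over Atp6v1c1 (-0.95), Atp6v0d2 over Atp6v0d1 (1.01) and Atp6v0a4 over Atp6v0a1 (-1.59) passed, each with 4 of 4 kidneys outside the range of the controls (exact permutation p = 0.0286, the smallest it can be, adjusted p = 0.0476). In set B alone the same pairs differed by -1.03, 1.06 and -1.30 and none of the 5 pairs passed (exact permutation adjusted p = 0.250, 0.250 and 0.0714). Atp6v0a4 over Atp6v0a1 was below every control in 4 of 4 set B kidneys as well, with the same exact permutation p of 0.0286, and its adjusted p is larger there because fewer of the pairs reached that smallest value. Atp6v1g3 over Atp6v1g1 differed by 1.08 in set B, with 4 of 4 kidneys above every control (exact permutation p = 0.0286, adjusted p = 0.0714), and by 0.39 in set A, with 1 of 4 above (exact permutation p = 0.400). The difference between the sets was not tested for these ratios.

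**Figure D4:**
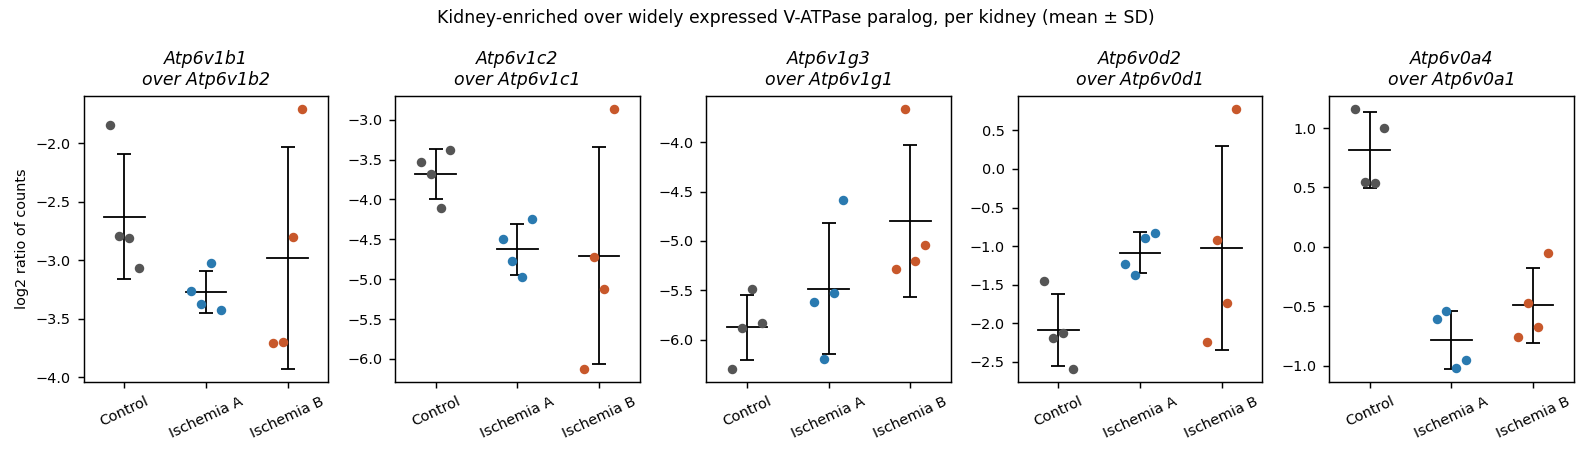
Log2 ratio of counts of the kidney-enriched V-ATPase subunit to its widely expressed paralog in each kidney (vertical axis, a different range in each panel) for the control kidneys and the 2 ischemic sets; points are kidneys, the bar is the mean and the whisker the SD. Atp6v0a4 over Atp6v0a1 is above 0.5 in every control and below 0 in every ischemic kidney, and set B replicate 4 is the highest set B kidney in 4 of the 5 panels.

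Over the 8 ischemic kidneys, Foxi1 was compared with each of the other 9 genes on log2 CPM. The ischemic sets were pooled, since 4 kidneys are too few for a correlation within a set. Pearson's r was largest with Atp6v0d2 (r = 0.85, exact permutation p = 0.00694, adjusted p = 0.0625 over 9 relations, Spearman's rho = 0.81, exact permutation p = 0.0218). It was 0.78 with Slc26a4 (exact permutation p = 0.0248, adjusted p = 0.0836), for which rho was 0.90 (exact permutation p = 0.00456, adjusted p = 0.0411), and 0.76 with Slc4a9 (exact permutation p = 0.0279, adjusted p = 0.0836, rho = 0.74, exact permutation p = 0.0458). No Pearson correlation passed after adjustment. When the 2 kidneys farthest from the median of Foxi1, set A replicate 2 and set B replicate 4, were left out, r was 0.60 with Atp6v0d2, 0.78 with Slc26a4 and 0.58 with Slc4a9. For Rhcg r went from 0.71 (exact permutation p = 0.0473, rho = 0.64, exact permutation p = 0.0962) to 0.19 and for Atp6v1b1 from 0.60 (exact permutation p = 0.121, rho = 0.31, exact permutation p = 0.462) to 0.08, so these relations rest on those kidneys. Slc4a1 had r = -0.22 with Foxi1 (exact permutation p = 0.598, rho = -0.21, exact permutation p = 0.619), and r = -0.49 without set B replicate 4. The remaining genes had r between 0.15 and 0.65. Without set B replicate 4, r went from 0.65 to 0.20 for Atp6v1c2, from 0.15 to -0.18 for Rhbg and from 0.64 to 0.76 for Atp6v1g3.

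The genes most alike to the group as a whole were sought among 9346 other genes whose mean log2 CPM was 1 or more, by Pearson's r with the mean z-score of the 10 members over the 8 ischemic kidneys. Among the 5 highest were Ckmt1 (r = 0.99), Iqgap1 (0.98), Limk2 (0.98) and Pkm (0.98), all 4 at their highest in set B replicate 4. Without that kidney r was 0.97 for Ckmt1 and 0.94 to 0.97 for the others. These are descriptions over 8 libraries that share their depth and preparation.

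Other genes of the intercalated cell were taken from a list of 23, of which 20 could be tested and P2ry14, Spink8 and Atp12a could not. Against the controls, 5 fell and none rose in all ischemic kidneys, against 14.2% of all genes lower, and the median log2 fold change was 0.08. Car12, a membrane carbonic anhydrase, had 288.2 to 345.1 CPM in the controls and 76.5 to 173.1 CPM after ischemia and fell by 1.31 on the log2 scale (SE 0.153, edgeR adjusted p = 1.63e-06). Kcnma1, the pore subunit of the large-conductance potassium channel, fell by 1.74 (edgeR adjusted p = 1.35e-07) and Atp4a, the gastric-type proton-potassium pump, by 1.83 (edgeR adjusted p = 5.58e-05). Insrr, the insulin receptor-related receptor that senses alkaline pH, fell by 1.13 (edgeR adjusted p = 0.00155), and Atp6v0a4 is given above. The low transcripts Oxgr1 and Hmx2 had log2 fold changes of -2.59 and -2.14 and did not pass (edgeR adjusted p = 0.300 and 0.235). Car2, the cytosolic carbonic anhydrase, had a log2 fold change of 0.70 in set B (edgeR adjusted p = 0.0428) and of 0.37 over all ischemic kidneys (edgeR adjusted p = 0.222). The call in set B was lost with the replicate block, with no filter on low counts, with only the groups compared, and without control replicate 3 or 4, set A replicate 2, 3 or 4, or set B replicate 2 or 4. Car12 and Kcnma1 are also made by other cells of the kidney.

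The widely expressed subunits of the V-ATPase were 18 genes, with 17 tested and Atp6v0c without a count in any kidney. Of these 5 fell, 1 rose and 11 did not pass, and 4 to 7 were called lower across the alternatives. Over all genes tested, 14.2% were called lower and 12.2% higher in this comparison, the background for this list and for those of the neighbouring cells. This list had a median of -0.34 on the log2 scale. Atp6v1a, the catalytic A subunit, fell by 1.26 on the log2 scale (edgeR adjusted p = 9.07e-07), Atp6v1e1 by 0.80 (4.15e-06), Atp6v1d by 0.61 (0.0326) and the accessory subunit Atp6ap2 by 0.49 (0.00668), beside Atp6v0d1. Atp6v0a1 was the gene that rose. Atp6v0e2 and Tcirg1, both low, had -0.90 and 0.85 and did not pass (edgeR adjusted p = 0.658 and 0.318).

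Neighbouring cells give a frame for these values. Of 12 principal cell genes, the partners of intercalated cells in the collecting duct, 11 were tested and 0 passed in edgeR or in DESeq2 over all ischemic kidneys, with 1, the potassium channel gene Kcnj1, at an unadjusted p below 0.05. This count was 1 with limma-trend, with no filter, without control replicate 1 and without set A replicate 2, and 2 without set B replicate 4, always as lower. Kcnj1 had a log2 fold change of -0.87 (edgeR adjusted p = 0.0555), Hsd11b2 -0.66 (0.343), Avpr2 -0.45 (0.647) and Aqp4 -0.38 (0.868). Other genes of the list had positive values, among them Aqp2 (0.38), Scnn1b (0.38), Gata3 (0.36), Scnn1g (0.27) and the low transcript Elf5 (1.61), and the median of the list was -0.19. The summed principal cell level ranged from 222.9 to 296.5 CPM in control kidneys, from 195.5 to 235.6 CPM in set A kidneys and from 140.7 to 409.9 CPM in set B kidneys, where the highest kidney was replicate 4. In the thick ascending limb, where the median was -0.87, 2 of 7 genes fell, the cotransporter gene Slc12a1 by 2.82 (edgeR adjusted p = 2.01e-08) and Cldn10 by 2.73 on the log2 scale (3.14e-05), while Ptger3 at -1.40 did not pass (0.361). When set B replicate 4 was left out, 5 of these 7 passed as lower, and 3 passed with limma-trend, with no filter, without control replicate 1 and without set A replicate 2. In the distal convoluted and connecting tubule, 4 of 10 fell and none rose, with a median of -0.53, although 1 was called higher with DESeq2, with limma-trend and without control replicate 3. Calb1 fell by 1.90 (edgeR adjusted p = 1.24e-05), Slc8a1 by 1.38 (1.87e-06) and Wnk1 by 0.88 (1.56e-07). Pvalb fell from 1.08 to 4.08 CPM in the controls to at most 0.128 CPM after ischemia (edgeR adjusted p = 0.00894). The calcium channel gene Trpv5 had 0.90 (0.0670) and S100g -1.46 (0.594). In set B alone Trpv5 was called higher (1.21, edgeR adjusted p = 0.0337). No gene of this list was called higher there with only the groups compared or without control replicate 1.

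Acid-base genes of the proximal tubule were a list of 8, with 7 tested, of which 5 fell and 1 rose. Slc9a3, the apical sodium-proton exchanger, fell by 1.89 on the log2 scale (edgeR adjusted p = 5.66e-05), Slc4a4, the basolateral bicarbonate cotransporter, by 1.54 (3.61e-06), Pck1 by 1.48 (3.42e-04) and the glutamine transporter gene Slc38a3 by 1.35 (1.19e-04). Car14, a membrane carbonic anhydrase, fell from 7.83 to 14.5 CPM in the controls to at most 2.71 CPM after ischemia (edgeR adjusted p = 0.00152). Macrophage markers were low. The summed level of 10 such genes was 54.6 to 72.8 CPM in the controls and 14.9 to 38.2 CPM after ischemia, mostly Csf1r, which fell by 2.12 on the log2 scale (edgeR adjusted p = 2.55e-05). Cd14 had no counts in the controls and 0 to 11.04 CPM after ischemia (edgeR adjusted p = 0.00136), and Mrc1 (-1.95) and Cd68 (0.94) did not pass (edgeR adjusted p = 0.0937 and 0.761).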

How the data were processed

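The authors prepared libraries from total RNA of kidney tissue with a stranded mRNA kit, sequenced them as single reads and, per the labels, used FastQC, STAR, HTSeq and the mm10 genome. They deposited a table of raw counts per gene, not normalized. Software versions, the annotation release and the strand setting are not given in the sources used here.

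The analysis used edgeR 4.0.16 under R 4.3.3 (default filter, count minimum 10 and total minimum 15, TMM scaling, one quasi-likelihood fit of 3 groups to all 12 kidneys, two-sided tests, threshold 0.05). Older symbols in the table were matched for 4 list genes (Adgre1, Adgrf5, Epb42, Hbb-bs). Levels per kb used the union of exons in GENCODE M21. Ratios had 0.5 counts added to each gene. Permutation tests enumerated every split, and used SciPy 1.17.1, NumPy 2.4.6, pandas 2.3.3 and Python 3.11.15, with matplotlib 3.10.9 for plots. A total of 3 counts, the floor, was 0.067 to 0.195 CPM, and floors cover counting error only. No replicates agreed within sampling noise (chi-square over its degrees of freedom was 48.9 or more). The named genes were all 10 members, the paralog pairs, the 5 most alike genes and, of each list, the 4 largest changes among genes whose mean log2 CPM was 0 or more, with every gene of a call count up to 5. Members and lists were chosen with earlier results of these data known. Alternatives were DESeq2 1.42.0, RLE scaling, no filter, a floor of 1 CPM exceeded in 4 or more kidneys, a replicate block, a fit of only the groups compared, limma 3.58.1 in its trend mode, and leaving out each kidney. A few genes of the wider lists and of the likeness ranking are not reported here by name.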

Additional observations from a re-analysis of the deposited data

Results flagged for a closer look

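Atp6v0d2 in ischemia set B was flagged because replicate 4, with 42.7 CPM, lay far from the other 3 kidneys of the set (11.2 to 16.0 CPM), with a gap of 0.847 of the whole range against a critical value of 0.829. It was the only one flagged of 30 groups of 4 kidneys tested, and chance flags about 1 in 20 groups. The same kidney was the highest of the 8 ischemic kidneys for Slc4a9, Foxi1, Atp6v1b1, Atp6v1c2, Rhcg and Rhbg, and had the smallest total count of the 12 (15367342). Without it, Atp6v0d2 in set B had a log2 fold change of -0.17 against control, in place of 0.43.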

How the results depend on the processing

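Slc4a1 and Rhcg kept their direction and call against control in every alternative. The median shift of all genes was under 0.1 on the log2 scale in each fit. Of 750 values of single members under an alternative, 722 kept their direction and side of the threshold, 2 lost the call, 10 gained it and 16 changed sign, and the causes were not tested beyond the kidney left out. Leaving out single kidneys gave 2 to 4 members called in set B against control. The 4 without set B replicate 4 were Slc4a1, Rhcg, Atp6v1b1 and Atp6v1c2. In set B against set A, 1 gene of the whole table was called, against 29 with DESeq2, 6 with no filter, 0 with limma-trend, 0 with only the groups compared and 0 to 7 without single kidneys. Members that changed sign when a kidney was left out had these ranges. For Atp6v0d2 they were -0.0265 to 0.48 over all ischemic kidneys, -0.0168 to 0.34 in set A, -0.17 to 0.62 in set B and -0.30 to 0.51 in set B against set A. In set A they were -0.16 to 0.37 for Atp6v1g3, -0.0343 to 0.50 for Foxi1 and -0.10 to 0.60 for Slc4a9. In set B against set A they were -0.46 to 0.59 for Atp6v1c2 (-0.0395 with limma-trend), -0.0006 to 0.29 for Rhcg, -0.28 to 0.59 for Slc26a4 and -0.12 to 0.90 for Slc4a9.

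For the paralog ratios, leaving out single kidneys gave -1.54 to -1.33 for Atp6v0a4 over Atp6v0a1, whose adjusted p was 0.0606 without any single control (fewer splits are then possible), -1.24 to -0.78 for Atp6v1c2 over Atp6v1c1, 0.52 to 0.88 for Atp6v1g3 over Atp6v1g1 and 0.77 to 1.25 for Atp6v0d2 over Atp6v0d1. The last 3 passed without set B replicate 4, set A replicate 2 and set B replicate 1, respectively. Adding 2 counts changed no call. Without the 2 kidneys farthest from the median, r of Foxi1 with Rhbg was -0.0334. With no filter 1 principal cell gene was called over all ischemic kidneys. Without set B replicate 4, principal cell calls were 2 over all ischemic kidneys, 1 in set A and 1 in set B, thick ascending limb calls were 5 over all and 5 in set B, and distal tubule calls in set B were 3.

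Same-numbered kidneys did not deviate together (r from -0.055 to 0.045 over 12 pairs). With the replicate number as a block, 3, 3, 2 and 0 members were called in the 4 comparisons, as without it. Rhbg rested on 5 to 128 reads per kidney, and its interval over all ischemic kidneys was -2.77 to 0.94 on the log2 scale.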
